A study of Mus musculus with 12 samples.

Results

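The let-7 and miR-98 family of the mouse medial prefrontal cortex (mPFC) was described here through its 9 guide strands, mmu-let-7a-5p, mmu-let-7b-5p, mmu-let-7c-5p, mmu-let-7d-5p, mmu-let-7e-5p, mmu-let-7f-5p, mmu-let-7g-5p, mmu-let-7i-5p and mmu-miR-98-5p, written below without the prefix for mouse. The members were taken by family name and not by a threshold on their values, and make up 9 of the 1422 miRNAs listed over all libraries. Small RNA of 18 to 30 nt was sequenced in 12 libraries, 3 for each of 4 groups of adult male C57BL/6 mice, and each library came from a pool of 2 animals. The groups were SS (saline+saline), CS (cocaine+saline), MS (MET+saline) and MC, which got MET+cocaine, where MET is l-methionine, a dietary methyl donor. MET was given under the skin at 1 g/kg, 2 times a day over 10 days, and cocaine at 20 mg/kg into the abdomen, and a figure legend of the study gives a lower dose of MET. All mice went through conditioned place preference (CPP), in which a drug is paired with one side of a box, and the mPFC was taken 2 h after the CPP test. The replicates were numbered 12, 13 and 14 for SS, 8, 9 and 10 for CS, 3, 4 and 23 for MS and 16, 17 and 20 for MC, and values below follow this order.

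A miRNA guides the Argonaute proteins to messenger RNAs that pair with its seed, bases 2 to 8 counted from the 5′ end, and lowers the output of those messengers. The let-7 miRNAs were first known as timers of development: LIN28 proteins hold back the processing of their precursors in stem and progenitor cells, and mature let-7 accumulates as cells differentiate and represses Lin28 itself, Hmga2, Trim71 and Ras genes. In adult brain the family is among the most abundant miRNAs. Each hairpin is cut by Drosha and then Dicer into a guide strand, here the 5p strand, and a passenger strand, here the 3p strand, which is mostly degraded.

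The sequences are shown because the members differ by a few bases outside a shared seed, and the count of each member depends on how those bases are read. They are the RefSeq mature sequences, 5′ to 3′, for which 9 of 9 members and 1160 of the 1422 miRNAs were matched by name, and the capitals mark the seed.
let-7a-5p: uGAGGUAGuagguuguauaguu
let-7b-5p: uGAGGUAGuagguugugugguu
let-7c-5p: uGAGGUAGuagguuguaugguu
let-7d-5p: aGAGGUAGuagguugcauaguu
let-7e-5p: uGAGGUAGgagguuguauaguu
let-7f-5p: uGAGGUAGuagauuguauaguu
let-7g-5p: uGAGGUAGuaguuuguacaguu
let-7i-5p: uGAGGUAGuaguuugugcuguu
miR-98-5p: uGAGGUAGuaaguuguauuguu
All 9 were 22 nt long and held the same 7-base seed. Positions were counted from 1 at the 5′ end, with the base of let-7a-5p written first. Against let-7a-5p, let-7c-5p differed by A19G, let-7e-5p by U9G and let-7f-5p by G12A alone. The substitutions were A17G and A19G in let-7b-5p, U1A and U16C in let-7d-5p, G12U and U18C in let-7g-5p, and G11A and A19U in miR-98-5p. The member furthest from let-7a-5p was let-7i-5p, with G12U, A17G, U18C and A19U. Of the 36 pairs of members, 4 differed at 1 position, 10 at 2, 11 at 3 and 9 at 4, and 1 pair each differed at 5 and at 6.

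The 9 guide strands came from 12 hairpins on 7 chromosomes (GRCm38, the mm10 build named in the submitters' processing notes), with let-7a-5p, let-7c-5p and let-7f-5p made from 2 hairpins each. Mirlet7d (chr13:48536012-48536114), Mirlet7f-1 (chr13:48537829-48537917) and Mirlet7a-1 (chr13:48538179-48538272) lay on the minus strand in an exon of the non-coding gene 6720427I07Rik, 1714 and 261 bp apart. Mirlet7c-2 (chr15:85706603-85706697) and Mirlet7b (chr15:85707319-85707403) lay 621 bp apart on the plus strand in an exon of Lncppara. Mirlet7f-2 (chrX:151912346-151912428) and Mir98 (chrX:151913214-151913321) lay 785 bp apart on the plus strand in an intron of Huwe1, a ubiquitin ligase gene. The others stood alone among let-7 hairpins: Mirlet7c-1 (chr16:77599657-77599750) in an intron of Mir99ahg, Mirlet7e (chr17:17830352-17830444) in an intron of Spaca6, Mirlet7g (chr9:106178840-106178927) in an intron of Wdr82, Mirlet7a-2 (chr9:41536716-41536811) in an intron of 3110039I08Rik, and Mirlet7i (chr10:122985640-122985724) in an exon of the transcribed pseudogene D630033A02Rik.

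The libraries held 4356489 to 7257737 miRNA counts, 56.1% to 67.9% of all their counts, and none of the 66 pairs of libraries agreed within sampling noise (smallest chi-square per degree of freedom, 131.0). MC replicate 16 stood apart from the other 11 libraries. Among the 176 miRNAs with a mean of at least 100 counts per 1000000 counts of the library (CPM), it was the lowest library for 99 and the highest for 32, and its scaling factor by the trimmed mean of M-values (TMM) was 0.675, against 0.826 to 1.26 in the others. Precursor families other than let-7 split the libraries into sets of SS 12, CS 8 and CS 9, of SS 13, SS 14, MS 3, MS 4, MS 23 and MC 20, and of CS 10, MC 16 and MC 17, and the labels name no batch. The neuronal miRNAs miR-124-3p, miR-9-5p, miR-9-3p, miR-128-3p, miR-132-3p and miR-138-5p were all listed in every library, and their sum ran from 104453 CPM in MC 16 to 272503 CPM. Results that rest on MC 16 are therefore given with and without it.

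As a whole the family was a large and steady part of the miRNA pool, with 1 exception. The 9 members summed to 14.6%, 16.3% and 19.6% of miRNA counts in SS, to 18.7%, 15.7% and 16.8% in CS, and to 12.9%, 17.6% and 15.4% in MS. In MC they summed to 40.0%, 18.2% and 16.2%. All groups overlapped, and MC 16, at 40.0%, lay far above the other 11 libraries, 12.9% to 19.6% (median 16.3%). The mean share was 16.8% ± 2.58 in SS, 17.1% ± 1.50 in CS, 15.3% ± 2.36 in MS, and MC averaged 24.8% ± 13.2 (SD, n = 3 each), while MC without replicate 16 was at 17.2% ± 1.39 (SD, n = 2). The coefficient of variation over the 11 libraries was 11.7%. Counting error added little, since the widest 95% Wilson interval was ± 0.0460 percentage points, which covers the counting alone.

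**Figure D1:**
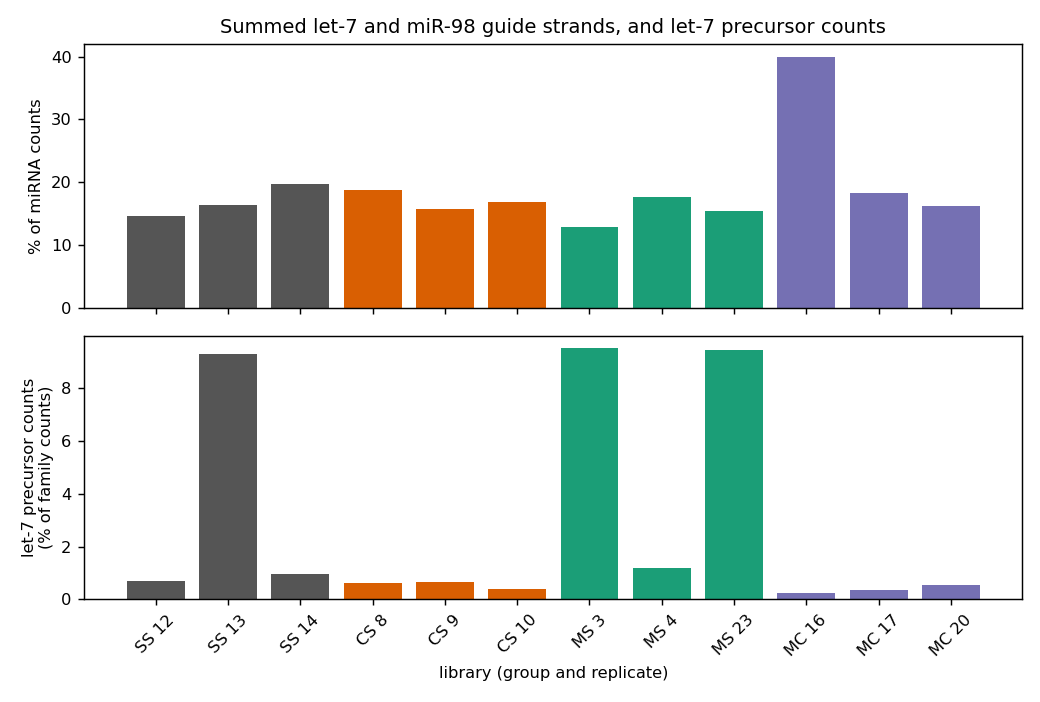
Upper bars, the summed 9 guide strands as a percentage of miRNA counts in each of the 12 libraries, coloured by group. Lower bars, the let-7 precursor family as a percentage of the family's guide counts. MC 16 stood at 40.0% in the upper panel, and SS 13, MS 3 and MS 23 stood at 9.30%, 9.50% and 9.44% in the lower panel.

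The share has miR-124-3p, the leading neuronal miRNA, in its denominator, and that miRNA ran from 4.77% of miRNA counts in CS 8 to 26.9% in MS 23. It was low in all 3 MC libraries, at 5.60% to 8.26%, and at 10.7% to 26.0% in SS, while CS (4.77% to 25.3%) and MS (5.97% to 26.9%) spanned both. The sum of the neuronal miRNAs, which includes miR-124-3p, lay lower in MC (104453 to 150430 CPM) than in SS (180729 to 272503 CPM), without overlap. In MC 17 and MC 20, miR-9-5p stood at 53757 and 59924 CPM, within the range of SS (48749 to 61617). In the same libraries miR-128-3p stood at 17997 and 22997 CPM, against 20282 to 28455 in SS. The part of the neuronal miRNAs in the family's share was not tested. With miR-124-3p left out of the denominator, a choice made after seeing the data, the family held 21.2% ± 1.35 in SS, 20.8% ± 1.47 in CS, 19.1% ± 1.89 in MS, and MC held 26.8% ± 14.7 (SD, n = 3 each). The spread over the 11 libraries then fell to a coefficient of variation of 9.00%. Of all small RNA counts the family made up 11.1% on average in SS, 10.8% in CS and 9.61% in MS, and 14.4% in MC. Within library sets, the share was 2.66 points higher in CS (2 libraries) than in SS (1), 2.66 points lower in MS (3) than in SS (2), 12.3 points higher in MC (2, with MC 16) than in CS (1), or 1.42 points without MC 16 (1 library each), and 0.918 points higher in MC (1) than in MS (3). These sets hold too few libraries for a test.

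Counts assigned to the let-7 precursor family, the hairpin before Dicer cleavage, split the libraries another way. They equalled 9.30% of the family's guide counts in SS 13, 9.50% in MS 3 and 9.44% in MS 23, and 0.227% to 1.19% in the other 9 libraries. The 3 high libraries belonged to 2 groups and to the same library set, and the lowest value, 0.227%, was that of MC 16. Since only RNA of 18 to 30 nt was recovered, these counts are short reads that matched a precursor entry and not whole hairpins.

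Members of the chr13 cluster were moderately to highly abundant. The CPM of let-7a-5p were 14730, 16285 and 17261 in SS, 18454, 14179 and 15953 in CS, 12403, 15518 and 13459 in MS, and 21507, 16537 and 14341 in MC. For let-7f-5p they were 10320, 12302 and 11068 in SS, 12211, 8379 and 12307 in CS, 9569, 11033 and 11189 in MS, and 6389, 12452 and 11241 in MC. Thus let-7a-5p was highest and let-7f-5p lowest in the same library, MC 16, and the groups overlapped for both. The level of let-7d-5p was 7286, 9295 and 10551 CPM in SS, 9457, 8651 and 8406 in CS, 6851, 8231 and 7268 in MS, and 11459, 9360 and 8241 in MC. Its MC libraries all lay above its MS libraries, the closest values being 8241 and 8231 CPM, while every other pair of groups compared overlapped.

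The members of the chr15 cluster included the most abundant one. In SS let-7c-5p stood at 27891, 35810 and 44733 CPM, in CS at 34817, 33460 and 32864, in MS at 25373, 32000 and 33002, and in MC at 116002, 35019 and 26864. By its mean over the libraries it had rank 3 of all miRNAs, and it had rank 1 in MC 16. The values of let-7b-5p were 10900, 11352 and 15230 CPM in SS, 14542, 14142 and 12148 in CS, 10379, 13709 and 12323 in MS, and 47739, 12138 and 10134 in MC. Apart from MC 16, the highest MC library of both was within the range of SS.

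The members encoded apart were let-7e-5p, let-7g-5p and let-7i-5p. In SS, CS, MS and MC let-7e-5p was at 3275, 4147 and 4246, at 4640, 3773 and 3768, at 2847, 3787 and 2660, and at 9815, 3807 and 3625 CPM. In the same order let-7g-5p was at 9166, 11432 and 12363, at 11250, 10100 and 9399, at 8961, 10633 and 9861, and at 5482, 10979 and 12231 CPM. Here the sign of the outlying library turned, since MC 16 was the highest library for let-7e-5p and the lowest for let-7g-5p. For let-7i-5p the CPM were 8165, 9471 and 12358 in SS, 11322, 10250 and 6629 in CS, 8169, 9232 and 7783 in MS, and 5706, 9271 and 8929 in MC. The rarest member, miR-98-5p, which shares the Huwe1 intron with Mirlet7f-2, stood at 675, 754 and 918 CPM in SS, 851, 780 and 701 in CS, 649, 807 and 669 in MS, and 406, 724 and 687 in MC. MC 16 was again the lowest library for both, and all groups overlapped.

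**Figure D2:**
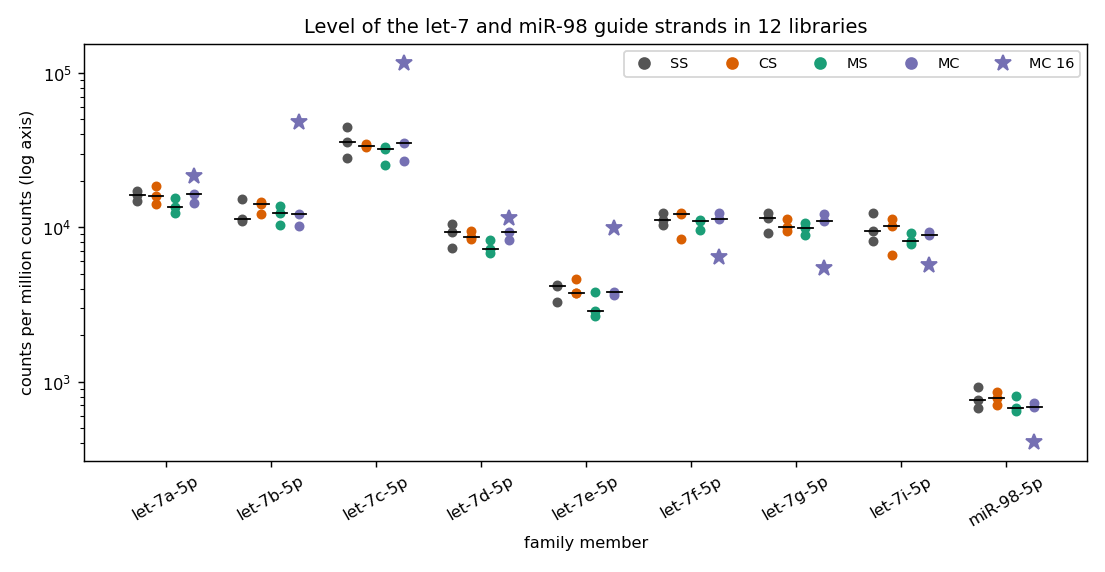
CPM of each member on a log axis, 1 point per library, with groups side by side, a black line at each group's median and MC replicate 16 as a star. The star lies above every other library for let-7a-5p, let-7b-5p, let-7c-5p, let-7d-5p and let-7e-5p, and below every other library for the other 4 members.

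The balance among members was narrow in the 11 libraries without MC 16. Of the family's counts let-7c-5p held 31.3% ± 1.97, let-7a-5p 14.7% ± 0.851, let-7b-5p 11.9% ± 1.03, let-7f-5p 10.7% ± 1.25, let-7g-5p 10.2% ± 0.921, let-7i-5p 8.82% ± 0.984, let-7d-5p 8.13% ± 0.335, let-7e-5p 3.52% ± 0.330 and miR-98-5p 0.715% ± 0.0364 (SD, n = 11). The first, second, seventh and eighth members of this order lay above the next one in 11 of 11 libraries. Inside the order the neighbours crossed: let-7b-5p was above let-7f-5p in 7 of 11 libraries, let-7f-5p above let-7g-5p in 8, and let-7g-5p above let-7i-5p and let-7i-5p above let-7d-5p in 9 each. These inner neighbours therefore did not separate beyond the spread between libraries. The share of let-7d-5p varied least (coefficient of variation 4.13%) and that of let-7f-5p most (11.7%).

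The ratio between members was described by the SD of its log2 value over libraries. Over the 11 libraries it ran from 0.10 to 0.32 for the 36 pairs, with a median of 0.17. The tightest pair was let-7a-5p and let-7d-5p of the chr13 cluster (0.097). Nearly as tight were let-7b-5p and miR-98-5p (0.099) and let-7d-5p and miR-98-5p (0.104), which share no locus. The 5 pairs that share a locus had a median of 0.15 and the 31 other pairs one of 0.18, a difference given without a test, since the pairs share members. Each of these 5 pairs holds let-7a-5p, let-7c-5p or let-7f-5p, which another locus also makes. With MC 16 included the median SD rose to 0.41 and the largest to 0.86, while that of let-7a-5p and let-7d-5p was 0.09. Their ratio was thus as steady with MC 16 as without it.

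In MC 16 the balance shifted towards let-7b-5p and let-7c-5p. Together they held 72.9% of the family's counts there, against 38.4% to 46.6% in the other 11 libraries. The combined share of let-7f-5p, let-7g-5p, let-7i-5p and miR-98-5p was 8.01%, against 28.4% to 34.4%. These groupings were formed after the values were seen and are a description of 1 library, a pool of 2 mice.

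**Figure D3:**
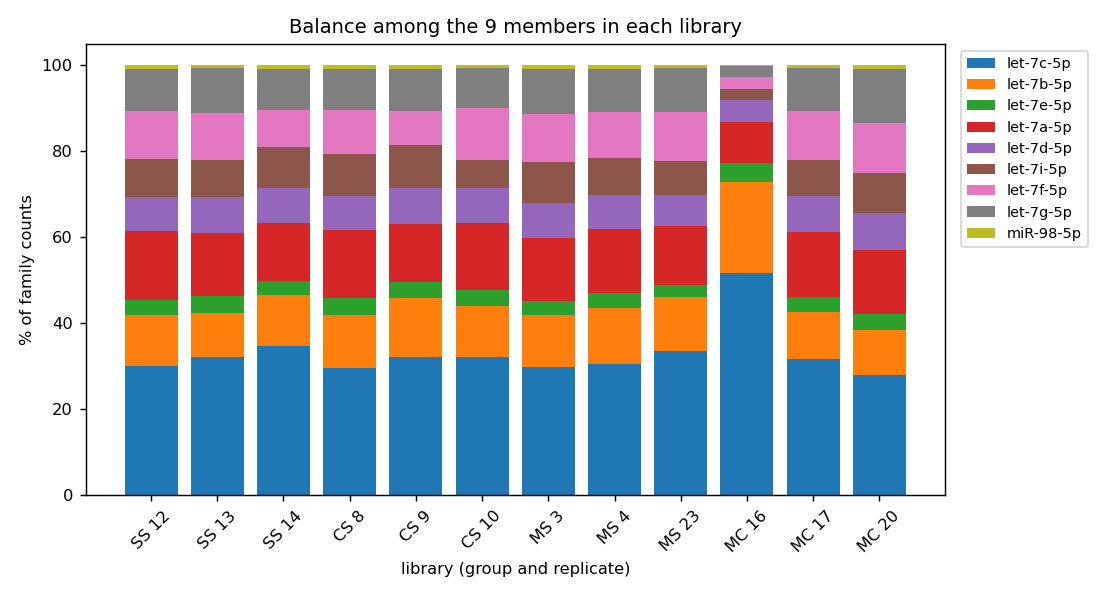
Share of each member in the family's counts, stacked to 100% for each of the 12 libraries. The bars of 11 libraries have nearly the same layers, with let-7c-5p between 27.9% and 34.7%, and in MC 16 let-7c-5p reached 51.7% and let-7b-5p 21.3%.

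Against the median of the other 11 libraries, the CPM in MC 16 was 3.93 times as high for let-7b-5p, 3.51 times for let-7c-5p, 2.60 times for let-7e-5p, 1.39 times for let-7a-5p and 1.36 times for let-7d-5p. The ratio was 0.618 for let-7i-5p, 0.571 for let-7f-5p, 0.560 for miR-98-5p and 0.516 for let-7g-5p. All 9 members lay outside the range of the other libraries, 5 above it and 4 below it. Most abundant miRNAs did so too: of the 176 with a mean of at least 100 CPM, 18.2% lay above and 56.25% below.

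Read beside the sequences above, the order of these ratios followed the number of guanine bases, a property looked at after the values were seen. The members held 10 guanines in let-7b-5p, 9 in let-7c-5p and let-7e-5p, 8 in let-7a-5p, let-7d-5p and let-7i-5p, and 7 in let-7f-5p, let-7g-5p and miR-98-5p. The correlation of the number of guanines with the log2 ratio of MC 16 was 0.94 over the 9 members and 0.54 over 141 other miRNAs. In each of the other 11 libraries the same correlation over all 150 miRNAs lay between -0.31 and 0.21, and over the 9 members alone it lay between -0.74 in MC 20 and 0.47 in CS 9. With only 9 points the correlation over the members thus varied widely between libraries. The non-members had a median log2 ratio of -1.37 with 0 to 4 guanines (n = 48), -1.18 with 5 to 6 (n = 58), 0.31 with 7 to 8 (n = 26) and 1.29 with 9 or more (n = 9). The points share a library and the members share most of their bases, so no p is given. What set MC 16 apart was not tested. MC 17 and MC 20, from the same treatment, lay within the range of the other groups for the family's share (18.2% and 16.2%).

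**Figure D4:**
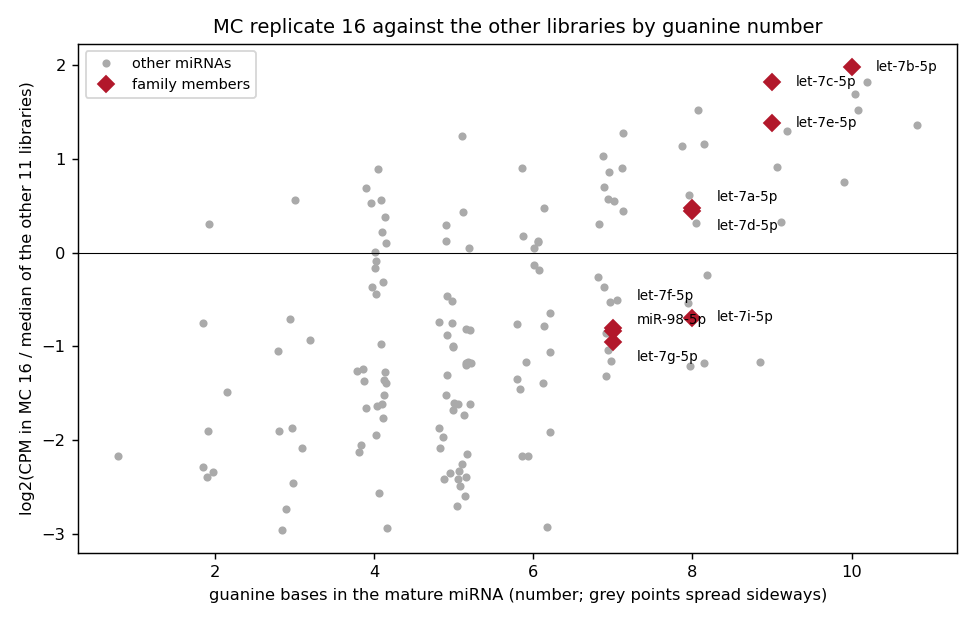
Log2 ratio of the CPM in MC 16 to the median of the other 11 libraries against the number of guanine bases in each mature miRNA, for 9 members (red) and 141 other miRNAs (grey). Members with 9 or 10 guanines lie at 1.38 to 1.97 and members with 7 at -0.96 to -0.81.

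The listing also holds miRNAs that share the seed without being members. Of the 1160 miRNAs with a sequence, 11 carried it: the 9 members, let-7k and miR-1961, which had 6 counts over all libraries. The sequence of let-7k is shown because it is 1 base from a member over its whole length, and the capitals mark the seed.
let-7k: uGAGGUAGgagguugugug
It is 19 nt long and differed from let-7b-5p by U9G and from let-7e-5p by A17G and A19G over those positions, with the member's base written first. It held 0.859% to 1.53% of miRNA counts in 11 libraries and 4.54% in MC 16, where its CPM was 3.51 times the median of the others, the same ratio as for let-7c-5p. Reads of let-7k, let-7b-5p and let-7e-5p may be divided among these entries by the mapping, and their single values are uncertain to that extent.

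A direct look at how reads were divided came from a passenger pair. The mature sequences of let-7a-1-3p and let-7c-2-3p are the same, and the capitals mark bases 2 to 8.
let-7a-1-3p: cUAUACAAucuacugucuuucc
let-7c-2-3p: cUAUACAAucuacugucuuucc
The files nevertheless listed unequal counts for the names, 5 and 61 in SS 14, 75 and 31 in CS 9 and 41 and 4 in MC 17. Their order differed between libraries. The counts of this identical pair are thus not independent measures of separate hairpins. How reads were divided among the members, whose sequences are not identical, was not examined.

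The effects of MET and of cocaine were compared by testing each member in a fit of all 780 miRNAs that had at least 5 counts in at least 3 libraries, which included all 9 members. A call needed an adjusted p no higher than 0.05 together with a log2 fold change of 1 or more in either direction (edgeR's quasi-likelihood F-test, Benjamini-Hochberg adjustment over 780). The fit scales libraries by TMM, so a fold change is relative to the bulk of miRNAs and not to the total count. None of the members was called in any of the 4 comparisons, nor were any of the other miRNAs (0.0% of 780 in each). The comparisons share their control libraries and are not independent of each other.

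In the CS vs SS comparison, cocaine without MET, no member passed the test. All 9 fitted log2 fold changes were negative, from -0.36 for let-7i-5p to -0.13 for let-7b-5p, with a median of -0.29, against 0.03 over all 780. The 6 abundant brain miRNAs described below had a median of -0.31 (-0.50 to 0.49). The 5 neighbours encoded next to let-7 hairpins had one of -0.19 (-0.35 to 0.16). Among the members, the values furthest from 0, in units of their error, were those of let-7g-5p (-0.36 ± 0.18 SE) and let-7i-5p (-0.36 ± 0.19). The smallest adjusted p of a member was 0.994 (edgeR). No member had an unadjusted p under 0.05, against 1.67% of all miRNAs in this direction. Without MC 16, 1 member, let-7g-5p, was under 0.05 unadjusted (p 0.033, edgeR), against 50 of 773 miRNAs in either direction. On the CPM scale the mean was higher in CS than in SS for let-7a-5p (16195 against 16092), let-7b-5p (13611 against 12494) and let-7e-5p (4061 against 3889). Without TMM, these 3 of the 9 fitted values turned positive and the median was -0.03, while the median of all miRNAs moved to 0.31. The median of the members was therefore below that of all miRNAs under both scalings, and no member passed the test under either. The 3 red blood cell miRNAs summed to 2395 to 2677 CPM in CS, above SS (1496 to 2221 CPM) without overlap, and their part was not tested.

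In the MS vs SS comparison, MET without cocaine, again no member passed. All 9 log2 fold changes were negative, from -0.59 for let-7e-5p to -0.28 for let-7b-5p, with a median of -0.47 against -0.03 over all miRNAs. The 6 abundant brain miRNAs described below had a median of -0.33 (-0.64 to 1.32). The 5 neighbours encoded next to let-7 hairpins had one of -0.32 (-0.54 to 0.42). A median below that of all miRNAs was thus not particular to the family. The CPM groups overlapped for 9 of 9 members, while 4.10% of all miRNAs lay lower in MS without overlap. Unadjusted p was 0.025 for let-7i-5p (log2 fold change -0.49 ± 0.19 SE) and 0.045 for let-7g-5p (-0.41 ± 0.18) in edgeR's test, so 2 of 9 members were under 0.05, against 3.97% of all miRNAs in this direction. Neither passed adjustment (0.431 and 0.502, edgeR). With MC 16 left out of the fit, which narrows the shared estimate of the spread, 7 of 9 were under 0.05 unadjusted (6.60% of 773 in this direction), the median was -0.39, and the smallest adjusted p was 0.0930, for let-7e-5p (edgeR). That fit called 5 other miRNAs (0.647% of 773) and no member. Some marker lists of other cell types stood higher in MS than in SS without overlap. The sum of the 2 endothelial miRNAs was 7669 to 9877 against 6580 to 7375 CPM. That of the 3 red blood cell miRNAs, mostly miR-451a, was 2559 to 3972 against 1496 to 2221 CPM. That of the 3 muscle miRNAs was 35.0 to 87.4 against 27.0 to 32.1 CPM. The sums for oligodendrocytes, microglia and leukocytes, choroid plexus and liver overlapped between MS and SS. The red blood cell sum was also higher in CS (2395 to 2677 CPM) than in SS without overlap, while the endothelial and muscle sums of CS overlapped those of SS. How many of all miRNAs lay higher in MS without overlap is not given here, so these sums have no background to be set against. The part of these markers in the result was not tested. Without TMM the median of the members was -0.22, with all 9 still negative, and that of all miRNAs 0.21.

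In the MC vs CS comparison, MET on top of cocaine, the members split by their behaviour in MC 16. The log2 fold change was 1.25 ± 0.60 (SE) for let-7c-5p, 1.24 ± 0.63 for let-7b-5p and 0.88 ± 0.49 for let-7e-5p, and it was negative for let-7f-5p, let-7g-5p, let-7i-5p and miR-98-5p (-0.27 to -0.04). The smallest adjusted p was 0.577 (edgeR), and no member was under 0.05 unadjusted, against 5.13% of all miRNAs higher in MC. Without MC 16, let-7b-5p moved to -0.39 ± 0.15, let-7c-5p to -0.24 ± 0.20 and let-7e-5p to -0.23 ± 0.15. The median over the members went from 0.36 to -0.17, with 8 of 9 negative and the smallest adjusted p at 0.635 (edgeR). In that fit 1 member, let-7b-5p, was under 0.05 unadjusted (p 0.029, edgeR), against 50 of 773 miRNAs in either direction. The direction of the 5 members with positive values in MC vs CS thus rested on 1 library. The red blood cell miRNAs summed to 3057 and 3595 CPM in the MC libraries other than MC 16, above all CS libraries (2395 to 2677 CPM), and to 386.7 CPM in MC 16, and their part was not tested.

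The MC vs MS comparison, cocaine on top of MET, gave the largest fitted values. The log2 fold change was 1.40 ± 0.60 (SE) for let-7c-5p, 1.39 ± 0.63 for let-7b-5p and 1.27 ± 0.49 for let-7e-5p. Unadjusted p was 0.039, 0.048 and 0.026 for these members in edgeR's test, 3 of 9 against 6.28% of all miRNAs higher in MC, and the adjusted p was 0.561 for each. Without MC 16 they stood at -0.11, -0.27 and 0.13, the median of the members fell from 0.58 to 0.01, and none was under 0.05 unadjusted. Only let-7d-5p had CPM groups that did not overlap, with MC above MS, against 5.64% of all miRNAs in this direction. Its log2 fold change was 0.61 ± 0.30 (SE; adjusted p 0.571, edgeR) and 0.10 ± 0.15 without MC 16.

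**Figure D5:**
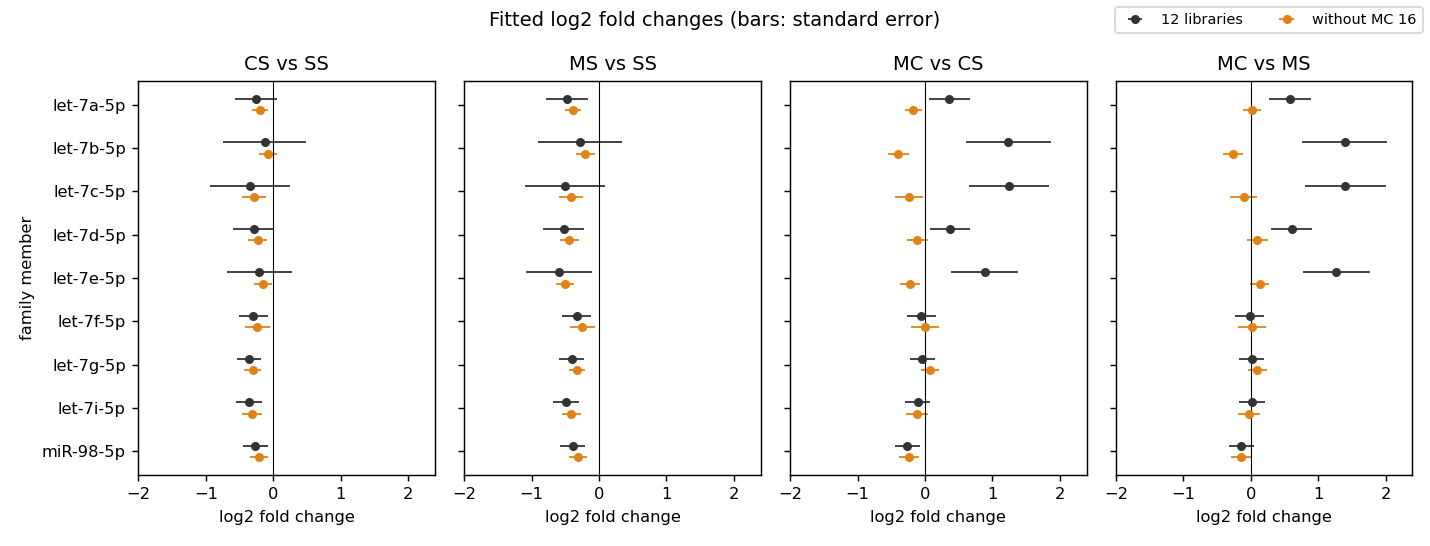
Fitted log2 fold change of each member in the 4 comparisons, with bars of 1 standard error, from all 12 libraries (dark) and without MC 16 (orange). In CS vs SS and MS vs SS both fits give negative values for all 9 members, and in MC vs CS and MC vs MS the 3 large positive values of let-7b-5p, let-7c-5p and let-7e-5p are found only with MC 16 in the fit.

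The interaction, the cocaine difference with MET minus that without, was positive for all 9 members with 12 libraries. It ran from 0.12 for miR-98-5p to 1.75 for let-7c-5p on the log2 scale, with a median of 0.84 against 0.06 over all 780 miRNAs. No member was called (smallest adjusted p 0.804, edgeR), and 0 of 9 were under 0.05 unadjusted, against 34 of all 780. Without MC 16 the median of the members was 0.25 and that of all miRNAs -0.12, and the value of let-7c-5p was 0.18 ± 0.27 (SE). A test of any difference among the 4 groups gave a smallest adjusted p of 0.593 over the members (edgeR; 0.0% of 780 called), with none under 0.05 unadjusted. DESeq2 called no member in the 4 comparisons or the interaction, and gave no adjusted p for let-7b-5p. Its unadjusted p was under 0.05 for 1 member in CS vs SS, 3 in MS vs SS, 1 in MC vs CS, 2 in MC vs MS and 2 in the interaction. Over all 780 miRNAs the numbers were 29, 76, 70, 78 and 43 in the same order.

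The passenger strands were scarce beside their guides. Of the counts of both strands, the passenger made up a median of 3.89% for let-7d (1.59% to 4.72% over the 12 libraries), 2.64% for let-7e and 1.40% for let-7f, and under 0.3% for the other 6 hairpin names. Among the passengers, let-7d-3p was the most abundant, at 149.9 to 428.9 CPM in 11 libraries. In MC 16, 1 of the 12 passengers, let-7d-3p at 473.8 CPM, lay above the other 11 libraries, 9 lay below them and 2 lay within their range. Of the 176 miRNAs with a mean of at least 100 CPM, 18.2% lay above and 56.25% below in MC 16. The passengers below included let-7e-3p (56.5 against 79.8 to 156.0 CPM), whose guide was above its range. The guides of let-7a-1-3p, let-7a-2-3p and let-7c-1-3p were above their range too. These passengers, however, had only 2, 10 and 2 counts in MC 16, and miR-98-3p, also below, had 2, too few for a reliable ratio. Reads of let-7a-1-3p may also be listed under the identical let-7c-2-3p, which lay within its range. All 12 passengers were tested and none was called in any of the 4 comparisons or the interaction (edgeR). Only 1 of them had an unadjusted p under 0.05 (edgeR), let-7i-3p in MC vs MS (log2 fold change -1.34). There 65 of all 780 miRNAs were under 0.05. The others of the let-7 name or seed, 3 of 5 of which passed the filter, gave no call either.

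The miRNAs encoded next to let-7 hairpins differed among themselves in MC 16. Mirlet7c-1 lies beside the hairpin of miR-99a, Mirlet7e beside those of miR-99b and miR-125a, and Mirlet7a-2 beside that of miR-100. In MC 16 miR-99a-5p stood at 0.329 times the median of the other libraries, miR-100-5p at 0.406 times and miR-99b-5p at 0.600 times, all below the other 11 libraries. The neighbours miR-125a-5p and miR-125b-5p stood at 1.44 and 0.936 times, inside the range. In the same library let-7e-5p was at 2.60 times and let-7c-5p, which Mirlet7c-2 also makes, at 3.51 times, both above the range. None of these 5 neighbours was called in any comparison (edgeR).

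Other abundant brain miRNAs gave the scale for the spread of the members over the 11 libraries. The coefficient of variation of CPM was 11.2% to 17.6% for the 9 members, lowest for let-7g-5p and highest for let-7i-5p. It was 12.4% for miR-26a-5p, 14.4% for miR-128-3p and 14.6% for miR-9-5p, and 32.0% for miR-30a-5p, 46.9% for miR-29a-3p and 60.2% for miR-124-3p. The members thus spanned the values of miR-26a-5p, miR-128-3p and miR-9-5p, and lay below those of miR-30a-5p, miR-29a-3p and miR-124-3p. Among them let-7c-5p (16.0%), let-7e-5p (15.8%) and let-7i-5p varied more than miR-9-5p. In MC 16, miR-9-5p, miR-26a-5p, miR-128-3p and miR-29a-3p were below the other 11 libraries, at 0.301 to 0.739 times their median.

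The miRNAs whose share followed the summed family most closely over the 12 libraries were let-7k (Pearson's r = 0.97), miR-1981-5p (0.96), miR-383-5p (0.93), miR-485-5p (0.93) and miR-129-5p (0.89), of 163 miRNAs compared. The libraries share their denominators, and MC 16 is 1 of the points. Without MC 16 the list was led by miR-1981-5p (0.85), miR-1839-5p (0.84) and let-7k (0.83), and it shared 2 of 5 names with the first, as did the list by Spearman's rank correlation.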

How the data were processed

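Small RNA of 12 mPFC libraries was sequenced on the BGISEQ-500 with single-end reads of 50 bp. The authors removed reads under 16 nt, of low quality or with adapters, mapped the rest with AASRA, and aligned unmatched reads to piRBase with Bowtie (1 mismatch). The submitters' processing notes name mm10. Each deposited count is a number of reads and is not normalized. The deposited TPM is the count over the library total times 1000000 as computed by the authors, and it matched within 0.005. Counts summed to the stated total in 12 of 12 libraries. Groups and replicate numbers were taken from the labels.

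Members and lists were chosen with earlier results of these data known. All 9 members were named, and lists of passenger strands, seed relatives, transcript neighbours and brain miRNAs were counted in full. The most similar miRNAs were the 5 with the highest Pearson's r, with a mean of at least 100 CPM. Counts were tested with edgeR 4.0.16 (R 4.3.3; TMM factors from miRNAs, library size the total count, 1 coefficient per group, at least 5 counts in at least 3 libraries), with DESeq2 1.42.0 as an alternative. Summed shares got no test. The fits were tested on simulated data. Library sets came from average-linkage clustering of 203 precursor families without let-7, with the number of sets fixed at 3. The median correlation was 0.59 within and -0.54 between sets. The clustering used these same correlations, so they are no test of the split. Sequences and loci are those of RefSeq on GRCm38.p6, and host genes those of GENCODE M21. The remaining steps used scipy 1.17.1, pandas 2.3.3, matplotlib 3.10.9 and numpy 2.4.6 on Python 3.11.15. P-values measure the spread between pools of 2 animals.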

Additional observations from a re-analysis of the deposited data

How the results depend on the processing

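No member was called in the 4 comparisons or the interaction under any alternative (DESeq2, other scaling, other filters, 6 libraries in the fit for the comparisons but not for the interaction, library set as a covariate, no limit on the fold change, each library left out in turn), and the smallest adjusted p of a member over them was 0.659 in CS vs SS, 0.0721 in MS vs SS, 0.306 in MC vs CS and 0.228 in MC vs MS (edgeR or DESeq2). The number of all miRNAs called in MS vs SS was 0 with edgeR, 7 with DESeq2, 5 without MC 16 and 3 with the 6 libraries of the comparison alone, none of them members. The fitted value of every member stayed negative in MS vs SS under every alternative run. Without TMM the CS vs SS log2 fold change of let-7a-5p (0.00926), let-7b-5p (0.12) and let-7e-5p (0.062) changed sign, and so did that of let-7g-5p (-0.0378) and let-7i-5p (-0.075) in MC vs MS. Values near 0 in MC vs MS also crossed it for let-7f-5p with DESeq2 (0.037) and with 6 libraries (0.0026), for let-7g-5p with at least 10 counts (-0.00472) and for let-7i-5p with TMM from all features (-0.00269), and the cause was not tested. Leaving out each library in turn, the MC vs CS log2 fold change ran from -0.17 to 0.61 for let-7a-5p, -0.39 to 1.68 for let-7b-5p, -0.24 to 1.68 for let-7c-5p, -0.11 to 0.60 for let-7d-5p, -0.23 to 1.24 for let-7e-5p, -0.20 to 0.17 for let-7f-5p, -0.12 to 0.077 for let-7g-5p and -0.22 to 0.0016 for let-7i-5p. In MC vs MS it ran from -0.27 to 1.84 for let-7b-5p, -0.11 to 1.84 for let-7c-5p, -0.070 to 0.093 for let-7f-5p, -0.072 to 0.096 for let-7g-5p and -0.027 to 0.061 for let-7i-5p. The lowest values of the first 5 members in MC vs CS, and of let-7b-5p and let-7c-5p in MC vs MS, were those without MC 16. The family's share moved with its denominator: 11.1% in SS, 10.8% in CS and 9.61% in MS of all counts, 21.2%, 20.8% and 19.1% without miR-124-3p, and 14.5% in CS with precursors added. The CS vs SS difference of 0.238 points was 2.66 points within 1 library set. Depth does not limit these values, since the rarest member had at least 3152 counts in every library. No paired analysis was possible because the groups share no replicate numbers.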

Other observations

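The marker miRNAs of other cell types were all listed, and MC 16 was the lowest library for the sums of several lists but not of all. Of the 176 miRNAs with a mean of at least 100 CPM, 56.25% were lowest and 18.2% highest in MC 16. The red blood cell markers miR-451a, miR-144-3p and miR-486a-5p summed to 386.7 CPM in MC 16 and to 1496 to 3972 CPM in the other 11 libraries. The endothelial markers miR-126a-3p and miR-126a-5p summed to 2972 CPM there, against 6580 to 9877 CPM. The sums of the 5 choroid plexus markers (702.2 CPM) and of the 5 microglia and leukocyte markers (359.1 CPM) were also lowest in MC 16. Those for oligodendrocytes (961.1 CPM), liver (212.8 CPM) and muscle (42.9 CPM) lay within the range of the other libraries. Single markers differed, and miR-219a-2-3p and miR-206-3p were highest in MC 16. Outside MC 16, red blood cell markers ran from 1496 to 2221 CPM in SS, 2395 to 2677 in CS and 2559 to 3972 in MS, and stood at 3057 and 3595 in the other MC libraries. Endothelial markers ran from 6580 to 7375 CPM in SS, 6878 to 8465 in CS and 7669 to 9877 in MS. Their part in the levels of the let-7 members was not tested.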
